A study of Mus musculus with 12 samples.

Results

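This account concerns 47 genes of the motile cilium and of the transport system that builds it, measured in sorted mouse spermatocytes. They are the rows of the table of 23235 genes whose symbol begins with Dnah, Dnaic, Dnali or Dnalc (axonemal dynein chains), Tekt (tektins), Rsph (radial spoke proteins), Ift (intraflagellar transport), Bbs (Bardet-Biedl syndrome proteins) or Spag (sperm associated antigens), the prefix in most cases followed by a number. The symbols sort them into 5 dynein intermediate and light chains, 5 tektins, 6 radial spoke proteins, 3 Spag proteins of the central apparatus, 2 proteins of the IFT-A complex, 10 of the IFT-B complex, 6 subunits of the BBSome, 2 chaperonin-like BBS proteins and 8 other Spag genes. No symbol matched Dnah, because the table writes the dynein heavy chains with the older symbols Dnahc; these 11 rows are not among the 47 and are described with the related genes further on. The Spag prefix collects genes by name and not by function. Spag5, Spag7, Spag11a and Spag11b are not known as parts of the axoneme or of its transport trains.

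The cells were leptotene/zygotene (LZ) or pachytene spermatocytes on a C57BL/6 background, collected by flow sorting with a purity check, and carried the label WT (wild type) or Rnaseh1 knock-out. In meiotic prophase LZ comes before pachytene, and RNase H1 is the enzyme that removes RNA from RNA:DNA hybrids. With 2 labels at 2 stages there were 4 groups of 3 libraries, 12 in all, and the knock-out groups are called KO-labelled here. Age, the deleted exons and any Cre driver are not given in the sources used here, and the labels do not say that replicates came from separate animals, so p-values measure the spread between these libraries, which may be technical. Values are FPKM (fragments per length of transcript and total fragments, so that levels can be compared between genes) that the authors scaled between libraries with ERCC spike-in RNA. Read counts are not in the table and the depth of each library is unknown.

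The axoneme of a motile cilium or sperm flagellum is a ring of doublet microtubules around a central pair. Outer and inner dynein arms on the doublets drive bending, radial spokes pass signals from the central apparatus to the arms, and tektins lie within the wall of the doublets. Intraflagellar transport trains of IFT-B and IFT-A carry building blocks into the cilium and back, and the BBSome acts as a cargo adaptor. In the testis the flagellum is assembled in spermatids, after meiosis, and transcription of many of its genes begins in meiotic prophase, where A-MYB (Mybl1) and RFX2 are known regulators of pachytene and ciliary genes.

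The promoters of the tektins are shown because A-MYB and RFX factors act at this stage and the tektins hold a match to one of their motifs each. Of the 47 genes, 38 had a promoter in the RefSeq table of build GRCm38.p6, from 250 bases before to 50 after the start. On either strand, the RFX half-site GTTGCCA was found in 5 of the 38 (13.2%) and in 5.02% of 27025 genes, and the MYB site AACNGCC in 12 of the 38 (31.6%) and in 13.6% of those genes. Over promoters rather than genes, the shares were 4.38% and 12.1% of 32851. All these shares count matches anywhere in the promoter. Of the 5 and 12 members, 2 and 8 had a match wholly before a start, and 3 and 4 only across or past it. The reverse of the RFX half-site ends in AAC, with which the MYB site begins, so matches of both can overlap in part. The Tekt1 sequence lies at chr11:72361883-72361915 on the minus strand, Tekt2 at chr4:126325697-126325739 on the minus strand, Tekt3 at chr11:63061614-63061656 on the plus strand, Tekt4 at chr17:25471553-25471589 on the plus strand and Tekt5 at chr16:10395681-10395705 on the minus strand. Each is printed 5′ to 3′ on the strand of the gene and lies before a start (before 2 of the 3 starts that the table holds for Tekt2, and Tekt4 has 2 matches), with capitals for the RFX half-site in Tekt1 and for the MYB site, in 1 of its orientations, in the others. A match describes the letters of a window and does not show that a factor binds there.
Tekt1: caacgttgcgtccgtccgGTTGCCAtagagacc
Tekt2: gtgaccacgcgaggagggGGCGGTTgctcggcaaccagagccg
Tekt3: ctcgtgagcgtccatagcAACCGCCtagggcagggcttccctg
Tekt4: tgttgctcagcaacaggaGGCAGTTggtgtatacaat
Tekt5: GGCGGTTgtgatgtggttgctagga

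Across the whole table, summed levels per library were 609831 to 885259 in WT LZ, 430372 to 512468 in KO-labelled LZ, 3319970.3 to 4183734 in WT pachytene and 4811567 to 6702158 in KO-labelled pachytene libraries. Rnaseh1 itself was at 16.1, 20.5 and 16.8 in WT LZ and 11.0, 18.3 and 14.8 in KO-labelled LZ, 52.7, 51.7 and 56.8 in WT pachytene and 77.3, 68.9 and 94.3 in KO-labelled pachytene libraries. It was not called lower at either stage (log2 difference -0.28 (limma adjusted p = 0.407) at LZ and 0.56 (limma adjusted p = 0.0638) at pachytene), so the groups are named by their labels; a gene-level value does not show which exons were read. In WT libraries the summed shares of the stage markers went with the labels. The 13 LZ markers took 0.397% to 0.545% of the summed level in WT LZ and 0.237% to 0.254% in WT pachytene. The 14 pachytene markers took 0.529% to 0.651% and 1.10% to 1.20%. Some pachytene markers were also higher in KO-labelled than in WT pachytene libraries on the spike-in scale. Piwil1 was at 605 to 924 in WT and 1420 to 1443 in KO-labelled pachytene, and Ldhc at 22528 to 30388 and 41931 to 67232. Others overlapped, such as Ccna1 (203 to 380 and 197 to 744) and Spata22 (19.9 to 34.7 and 21.4 to 26.1). Sycp3, at 1930 to 2331, had the highest level of the LZ markers in WT LZ. Single LZ markers went both ways on the spike-in scale. Spo11 was at 61.8 to 96.2 in WT LZ and 645 to 971 in WT pachytene, and Prss50 at 329 to 470 and 52.7 to 93.3. The 18 round spermatid markers (such as the protamines) took 2.29% to 3.91% in WT LZ, 0.190% to 1.51% in KO-labelled LZ, 0.993% to 1.53% in WT pachytene and 0.0387% to 0.231% in KO-labelled pachytene. All 3 KO-labelled libraries lay below all 3 WT libraries for 15 of the 18 at LZ and for 18 of 18 at pachytene. Of 11 markers of multiciliated epithelium, another source of axonemal RNA, the summed share was 0.0235% to 0.0303% in WT LZ, 0.0149% to 0.0287% in KO-labelled LZ, 0.0135% to 0.0174% in WT pachytene and 0.00688% to 0.00860% in KO-labelled pachytene libraries. Of these 11, 3 (Sntn, Pax8 and Krt18) stayed under 1 FPKM in every library and the others did not. Epcam, an epithelial adhesion protein, was at 53.7 to 77.6 in WT LZ, 47.5 to 51.4 in KO-labelled LZ, 138 to 172 in WT pachytene and 157 to 297 in KO-labelled pachytene. Krt8, a keratin, was at 1.92 to 4.31, 0 to 1.55, 13.4 to 21.6 and 26.3 to 49.8 in the same order, and Fam183b at 239 to 350.2 in WT and 31.6 to 150.1 in KO-labelled pachytene. Of the 10 Leydig cell markers the share was 0.00180% to 0.00402% in WT LZ, 0.00227% to 0.0241% in KO-labelled LZ, 0.0909% to 0.259% in WT pachytene and 0.0439% to 0.109% in KO-labelled pachytene libraries; of the 14 Sertoli cell markers it was 0.142% to 0.199%, 0.198% to 0.448%, 0.0875% to 0.105% and 0.0234% to 0.0415% in the same order. The 10 peritubular and endothelial markers took 0.000380% to 0.00393%, 0.000597% to 0.00466%, 0.0170% to 0.0180% and 0.00314% to 0.00484%, and the 11 blood and macrophage markers 0.00108% to 0.00477%, 0.000715% to 0.00188%, 0.00491% to 0.0247% and 0.00688% to 0.0126%. The part of these cells in the results below was not tested.

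Nearly all of these genes were detected in the LZ libraries, and their levels spanned several orders of magnitude. The LZ libraries also held RNA of round spermatid markers, such as Prm1 at 6832 to 15197 in WT and 385 to 2581 in KO-labelled LZ. Which cells in these bulk samples held the RNA of the 47 genes was not tested. Of the 47, 42 had at least 1 FPKM in every library and 45 passed the filter of at least 1 in at least 3 libraries. The 2 that did not were Spag11a and Spag11b, near-identical genes of epididymal antimicrobial peptides, listed at 0 in every library. Rsph4a, the spoke head protein of airway cilia, passed only through pachytene libraries, where it reached 1.77 in 1 WT library and 1.42 and 1.49 in 2 KO-labelled ones; in LZ it was at most 0.413. Its paralogue Rsph6a, a spoke protein of the sperm flagellum, was at 33.3, 43.0 and 20.3 in WT LZ and 180.5, 153 and 243 in WT pachytene libraries. The highest level was that of Rsph1, a spoke head protein, at 8452, 12401 and 12413 in WT pachytene, and the next by mean over all libraries were Tekt1, Rsph9 and Ift20. The 47 genes together took 0.299% to 0.404% of the summed level in WT LZ, 0.284% to 0.343% in KO-labelled LZ, 0.613% to 0.704% in WT pachytene and 0.742% to 0.835% in KO-labelled pachytene libraries. These shares do not depend on the spike-in scaling; they overlapped between the genotype labels at LZ and did not overlap at pachytene or between stages. Rsph1 alone took 0.255% to 0.305% in WT and 0.350% to 0.393% in KO-labelled pachytene, and without it the shares at pachytene, 0.331% to 0.407% in WT and 0.392% to 0.442% in KO-labelled libraries, overlapped.

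**Figure D1:**
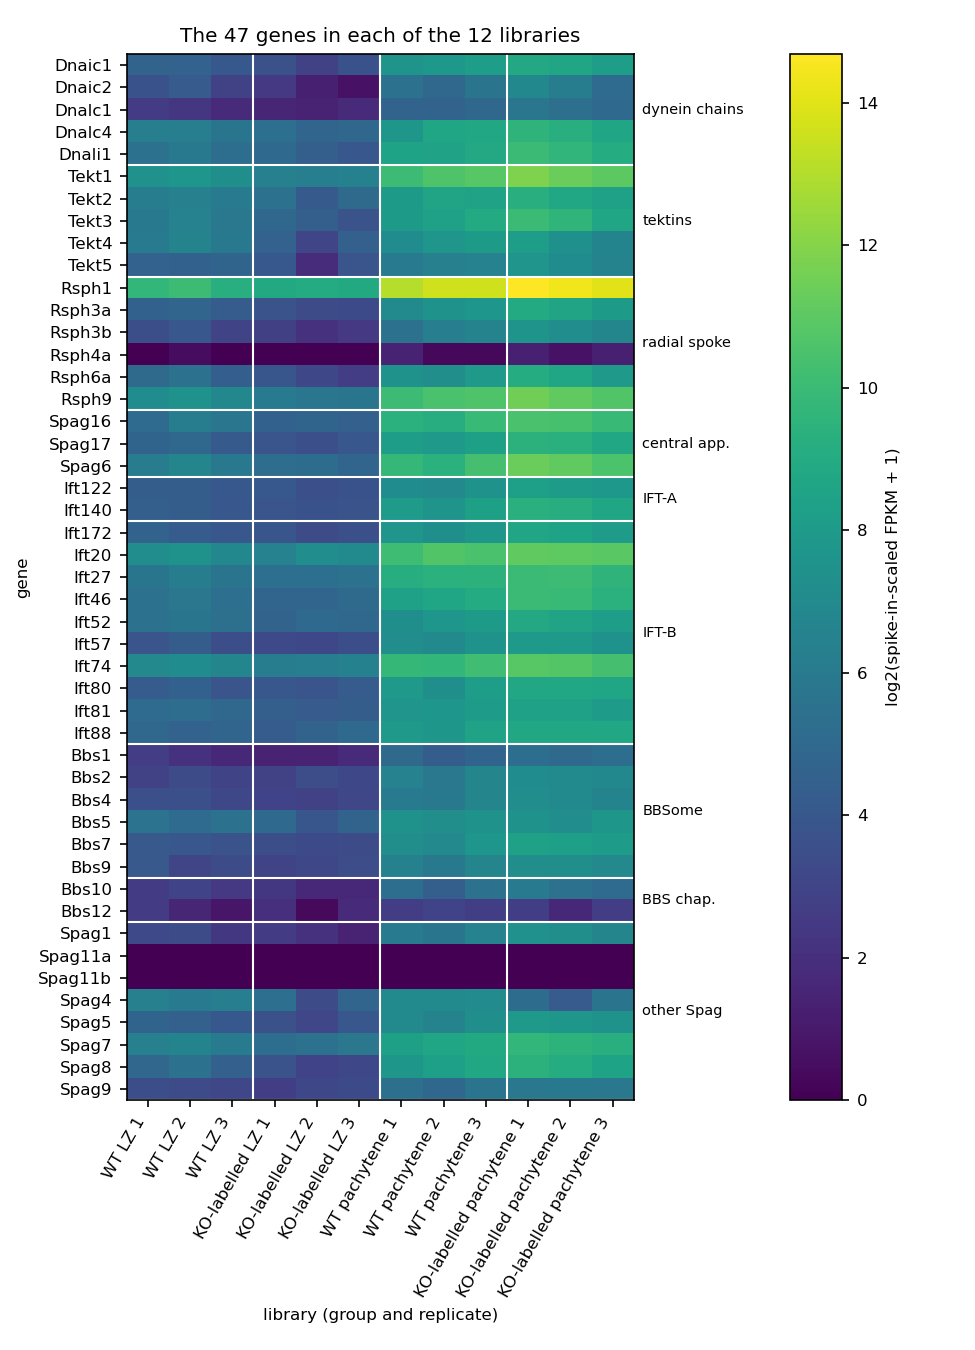
Heat map of log2(spike-in-scaled FPKM + 1) for the 47 genes (rows, grouped by complex) in each of the 12 libraries (columns, 3 per group; white lines part groups of genes and of libraries). Rsph1 is the brightest row, Spag11a and Spag11b are at 0 throughout, and the row of Spag4 is darker in KO-labelled than in WT pachytene libraries.

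The first comparison asks how these genes changed as WT cells went from LZ to pachytene. On the spike-in scale 43 of the 45 were called higher at pachytene and 0 lower (limma, Benjamini-Hochberg adjusted p under 0.05; 0 lower also at an unadjusted p under 0.05), with a median log2 change of 2.89. The background was large: 80.9% of all 15400 genes tested were called higher and 0.487% lower, and the median of all genes was 1.64. The median of these genes lay 1.26 above that of all genes, and 41 of 45 lay above it. Median-ratio scaling divides each library by the median, over genes, of its ratios to a reference library of geometric means, and puts the all-gene median at -0.0095; with it 29 were called higher and 0 lower (at an unadjusted p under 0.05, 29 and 1), against 20.2% and 18.1% of all genes. Scaling to an equal total gave 21 higher and 1 lower, and quantile normalisation 28 and 1. The members' median change was above 0 under all 4 scalings, at 0.87, 0.61 and 0.88 under the latter 3.

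The median log2 change in WT cells was 3.59 for the central apparatus, 3.35 for IFT-A and 3.27 for IFT-B, and 2.82 for the BBSome, 2.75 for the spokes, 2.5 for the dynein chains and 2.08 for the tektins. Spag6, Spag16 and Spag17, which build projections of the central pair, were all called higher on the spike-in scale and after median-ratio scaling. The symbol Spag6 may stand for Spag6 or for Spag6l of later annotations, so which gene its values belong to is uncertain. Spag16 was at 33.6, 71.5 and 52.6 in WT LZ and 661, 563 and 962 in WT pachytene libraries, a log2 change of 3.8 (SE 0.279, limma adjusted p = 8.45e-08), the largest of the 45. The groups were far apart, as they were for Spag6, at 72.7, 103 and 60.3 and 873, 652 and 1316 (log2 change 3.55 (SE 0.289, limma adjusted p = 1.56e-07)). Both IFT-A proteins and 10 of 10 IFT-B proteins were called higher, and 2 and 9 of them after median-ratio scaling. Ift140, a core subunit of the retrograde IFT-A complex, went from 18.4 ± 3.22 to 262 ± 61.6 (mean ± SD, n = 3), 14.2 times higher, with a log2 change of 3.75 (SE 0.236, limma adjusted p = 4.33e-08). Within IFT-B the log2 change ran from 2.16 for Ift52 to 3.55 for Ift80, and Ift20, which also sits at the Golgi, had the highest level, 144, 178 and 117 against 1111, 1664 and 1415. Ift52 was the IFT-B gene not called after median-ratio scaling, where its log2 change was 0.12, and it was -0.16 after per-million scaling.

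The dynein chains, spokes and tektins changed less evenly. All 5 dynein chains were called higher on the spike-in scale and 3 after median-ratio scaling. Dnaic1, an intermediate chain of the outer arm, went from 24.5, 23.3 and 15.8 to 194, 226 and 285, a log2 change of 3.42 (SE 0.279, limma adjusted p = 1.58e-07). Dnaic2, its partner chain in the outer arm, went from 12.2, 17.7 and 6.46 to 45.3, 30.7 and 48.7, a change of 1.77 (SE 0.493, limma adjusted p = 0.0047) that became -0.19 after median-ratio scaling. The most abundant chain was Dnali1, a light intermediate chain of inner arms, with a log2 change of 3.0. Of the radial spoke genes, 5 of 6 were called higher, led by Rsph1 at 3.71 (SE 0.244, limma adjusted p = 4.93e-08), and Rsph4a was not (0.52 (limma adjusted p = 0.14)). All 5 tektins were called higher on the spike-in scale, from 1.4 for Tekt4 to 3.03 for Tekt1, but only Tekt1 after median-ratio scaling, where Tekt4 stood at -0.65 and the median of the 5 at 0.024.

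The BBSome genes were all called higher on the spike-in scale, and 5 of 6 after median-ratio scaling. Bbs7 had the largest change, 3.34 (SE 0.231, limma adjusted p = 6.3e-08), from 16.4, 14.7 and 12.7 to 152, 117 and 213. Bbs5 had the smallest, 2.02, and stood at -0.017 after median-ratio scaling. The chaperonin-like Bbs10 and Bbs12, which help to assemble the BBSome, changed by 2.43 and 1.11, and neither was called after median-ratio scaling. Among the other Spag genes, Spag8, a protein of the sperm doublet wall, had the largest change (3.36 (SE 0.335, limma adjusted p = 7.77e-07)) and Spag4 the smallest. Spag4 encodes a SUN-domain protein of the spermatid nuclear envelope that has also been described at the microtubules of the manchette and axoneme; it was at 83.5, 65.9 and 77.1 in WT LZ and 132, 132 and 134 in WT pachytene libraries, a log2 change of 0.81 (limma adjusted p = 0.103). The 2 groups did not overlap for Spag4, but after median-ratio scaling the estimate was -1.23. Spag7 had the highest mean of this list and changed by 2.26.

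In KO-labelled cells the median change between the stages was larger on the spike-in scale, for these genes and for all genes. For Spag4 and Bbs12 the estimate was smaller in KO-labelled than in WT cells. The test of the difference for each gene is given further on. Of the 45, 43 were called higher and 0 lower at pachytene (0 lower also at an unadjusted p under 0.05), against 76.8% and 2.83% of all genes tested. Their median log2 change was 4.35 beside 2.29 for all genes. After median-ratio scaling 38 were called higher and 1, Spag4, lower, against 31.1% and 29.7% of all genes, and the members' median was 1.37. The largest change was that of Spag6, from 36.8, 35.2 and 27.1 to 2524, 2155 and 1499, a log2 change of 5.9 (SE 0.289, limma adjusted p = 6.87e-10). Spag8 (5.72), Spag16 (5.68), Rsph1 (5.41) and Spag17 (5.35) followed. All 5 tektins were called higher, and 3 of them after median-ratio scaling. Tekt3 went from 29.0, 20.8 and 12.4 to 1043, 768 and 417, a log2 change of 5.07 (SE 0.374, limma adjusted p = 1.41e-08), and Tekt4 had the smallest change of the 5 at 3.33. The dynein chains ranged from 3.82 (Dnalc1) to 5.18 (Dnaic1), with Dnali1 at 5.1. The transport genes ranged from 3.66 (Ift52) through 4.12 (Ift20), 4.3 (Ift122) and 4.85 (Ift46) to 5.29 (Ift140). In the BBSome Bbs7 led at 4.85 and Bbs5 was lowest at 2.96, while Bbs10 changed by 3.67. Rsph4a, at most 0.0193 in KO-labelled LZ and 1.42, 0.646 and 1.49 in KO-labelled pachytene, is among those called but passed the filter only through pachytene libraries, so nothing is read from its call; without it 42 of 44 were called higher. The 2 not called were Bbs12, at 0.95 (limma adjusted p = 0.0814), and Spag4, at 0.51 (limma adjusted p = 0.305).

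**Figure D2:**
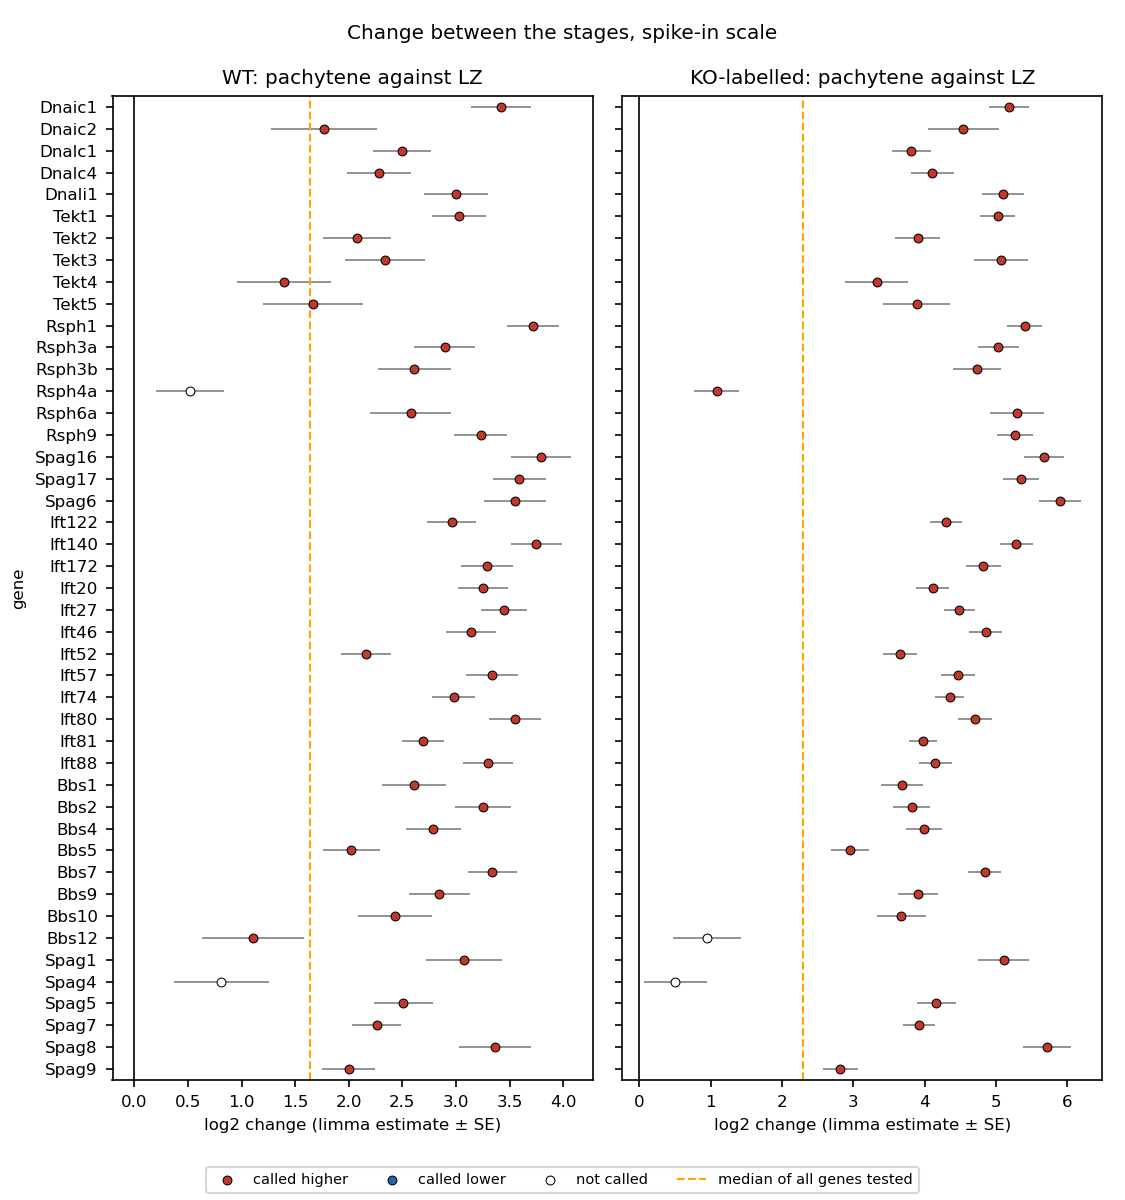
Log2 change from LZ to pachytene (x axis; point, limma estimate; bar, standard error) for the 45 genes that passed the filter, in WT (left) and KO-labelled cells (right), on the spike-in scale. Red points were called higher and open points were not called; the dashed line is the median of all genes tested, 1.64 in WT and 2.29 in KO-labelled cells, and 41 and 42 of the 45 points lie to its right.

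At LZ the KO-labelled libraries held lower spike-in-scaled levels of many of these genes. Of the 45, 18 were called lower and 0 higher (0 higher also at an unadjusted p under 0.05), against 12.9% and 0.136% of all genes tested. In 34 of 45 all 3 KO-labelled libraries lay below all 3 WT libraries, against 36.5% of all genes. The members' median log2 difference was -0.78 beside -0.43 for all genes. The calls depended on the scale: after median-ratio scaling 0 were called lower and 0 higher (11 and 2 at an unadjusted p under 0.05), against 0.688% and 0.39% of all genes, and per-million scaling and quantile normalisation also called 0 (8 and 11 lower, 3 and 4 higher at an unadjusted p under 0.05). The members' median stayed below that of all genes under those 3 scalings, at -0.26, -0.19 and -0.19. A fit to the LZ libraries alone and a fit without the filter called 0, and leaving out WT LZ replicate 1, WT LZ replicate 2 or KO-labelled LZ replicate 3 also gave 0, KO-labelled LZ replicate 2 gave 3 and WT LZ replicate 3 gave 26.

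Within the members, the calls at LZ stood mostly among the axonemal genes, and 3 stood among the 6 other Spag genes tested. Of the 5 dynein chains 4 were called lower, of the 5 tektins 4, of the 6 spoke genes 3 and of the 3 central apparatus genes 2, but of the 12 IFT genes only Ift81, of the 6 BBSome genes only Bbs5, and neither Bbs10 nor Bbs12. The groups' medians were -1.05, -1.38, -1.07, -1.07, -0.46 (IFT-A), -0.60 (IFT-B) and -0.51 (BBSome), and after median-ratio scaling -0.51, -0.91, -0.57, -0.51, 0.093, -0.043 and 0.024. The other Spag genes, which include Spag5 and Spag7, had a median of -0.90, and -0.42 after median-ratio scaling. Axonemal genes outside the members mostly had estimates below 0 (9 of 9 dynein heavy chains and 34 of 35 genes of the docking list), but their calls differed by list. Of the dynein heavy chains tested, 0 of 9 were called lower, with a median of -0.35 (-0.0098 after median-ratio scaling). Of 35 docking, nexin-dynein regulatory, ruler and central apparatus genes, 19 were called lower, with a median of -0.97 (-0.53). These are descriptions of small lists, and the difference between the lists was not tested. The lowest of the members was Tekt4, a tektin of the sperm flagellum. It was at 68.7, 95.3 and 60.2 in WT and 23.5, 7.52 and 21.9 in KO-labelled libraries. Its log2 difference was -2.14 (SE 0.441, limma adjusted p = 0.0178). Next was Dnaic2, at 12.2, 17.7 and 6.46 against 4.44, 1.47 and 0.674, a difference of -2.12 (SE 0.493, limma adjusted p = 0.022). The groups did not overlap for either gene, and KO-labelled replicate 2 was the lowest library for Tekt4 and replicate 3 for Dnaic2.

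Further genes of the axoneme had the same order of groups. Tekt3 was at 59.6, 91.3 and 58.1 in WT and 29.0, 20.8 and 12.4 in KO-labelled LZ, and Rsph6a, for which WT values are given above, was at 13.9, 8.02 and 5.47 in KO-labelled LZ. Their log2 differences were -1.74 (limma adjusted p = 0.019) and -1.73 (limma adjusted p = 0.0195). Tekt1, the tektin with the smallest difference, was at 169, 212 and 161 against 83.9, 78.3 and 85.7, and was called (-1.11 (limma adjusted p = 0.0207)). For Spag6 the difference was -1.2 (limma adjusted p = 0.0233), while Spag17, with -0.79 (limma adjusted p = 0.0524), was not called. Rsph1 (-0.74 (limma adjusted p = 0.059)), Rsph4a (-0.15) and Dnalc1 (-0.66) were not called, and Dnali1 was (-1.12 (limma adjusted p = 0.0313)). Among the other Spag genes Spag4 was lowest at -1.74 (limma adjusted p = 0.0278), Spag7 was called (-0.84) and Spag9, a scaffold of kinase signalling, was highest at -0.25 and not called. After median-ratio scaling the estimates of these genes kept their sign, except that of Spag9, which was 0.30.

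The medians of the transport genes at LZ were -0.46 (IFT-A), -0.60 (IFT-B) and -0.51 (BBSome), beside -0.43 for all genes. Of the 10 IFT-B genes 7 lay below the all-gene median, and 6 had estimates below 0 after median-ratio scaling. For 7 of the 10 all KO-labelled libraries lay below all WT ones, against 36.5% of all genes. Ift140 was at 21.1, 19.2 and 14.8 in WT and 13.4, 12.0 and 12.8 in KO-labelled libraries, a log2 difference of -0.49 (limma adjusted p = 0.163) that was 0.069 after median-ratio scaling. For Ift122 the values were -0.44 and 0.12, for Ift20 -0.27 and 0.32, and for Ift88, an IFT-B protein needed for flagella, -0.12 and 0.46, so the sign of these 4 depends on the scaling. Ift81 was the IFT gene called lower, at -0.78 (limma adjusted p = 0.0275). Bbs5 was the BBSome gene called lower, at -0.89 (limma adjusted p = 0.0455); Bbs2 stood at 0.070, Bbs7 at -0.54, Bbs10 at -0.73 and Bbs12 at -0.28, where Bbs7 and Bbs12 turned to 0.0024 and 0.065 after median-ratio scaling. The share of round spermatid markers in the same libraries was 2.29% to 3.91% in WT and 0.190% to 1.51% in KO-labelled LZ. This share was lower in KO-labelled LZ, as were the levels of the axonemal members. At pachytene it was also lower in KO-labelled libraries, where most members had higher spike-in-scaled levels. The part of round spermatid RNA in the result was not tested. In such bulk samples fewer cells of a type and less RNA per cell cannot be told apart.

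At pachytene most of these genes had higher spike-in-scaled levels in KO-labelled libraries. Of the 45, 23 were called higher and 1, Spag4, lower, against 24.6% and 14.3% of all genes tested. All 3 KO-labelled libraries lay above all 3 WT libraries for 31 of 45, against 36.4% of all genes. The members' median log2 difference was 0.78 beside 0.37 for all genes, and 41 of 45 lay above the latter. After median-ratio scaling 5 were called higher (Bbs7, Ift46, Ift80, Ift140 and Spag17, listed after their values were seen) and Spag4 lower, against 3.28% and 9.68% of all genes. Per-million scaling and quantile normalisation called 0 higher (6 each at an unadjusted p under 0.05) and Spag4 lower, and the members' median was 0.42, 0.20 and 0.31 under the 3. Among KO-labelled pachytene libraries, replicate 1 was the highest for 37 of 45 genes and replicate 3 the lowest for 39, against 53.3% and 56.0% of all genes tested. After median-ratio scaling these were 30 and 34 of 45, against 35.0% and 36.4%. Leaving out KO-labelled pachytene replicate 1 or 2 left 2 genes called higher, WT pachytene replicate 1 left 7 and replicate 2 left 6, and KO-labelled pachytene replicate 3 gave 31.

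All 3 central apparatus genes and both IFT-A genes were called higher. Spag6 was at 873, 652 and 1316 in WT and 2524, 2155 and 1499 in KO-labelled pachytene, a log2 difference of 1.15 (SE 0.289, limma adjusted p = 0.0154), the highest of the 45. The groups did not overlap, nor did those of Ift140, at 271, 196 and 318 against 634, 576 and 415, 2.07 times higher by means (1.05 (SE 0.236, limma adjusted p = 0.0105)). Spag16 and Spag17 were called too (0.81 and 0.98), as were Ift122 (0.90) and 6 of 10 IFT-B genes, from which Ift46 stood highest (1.03 (limma adjusted p = 0.0103)). Ift20 and Ift81 were not called, at 0.60 (limma adjusted p = 0.0555) and 0.50 (limma adjusted p = 0.0596), although all KO-labelled libraries were above all WT ones for each of the 10 IFT-B genes. In the BBSome 3 of 6 were called, with Bbs7 highest (0.96 (limma adjusted p = 0.0133)) and Bbs5 lowest (0.042 (limma adjusted p = 0.907)), and Bbs10 (0.51) and Bbs12 (-0.44) were not.

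The dynein chains and tektins were each called in 1 of 5 cases. Dnali1 was called higher (0.98 (limma adjusted p = 0.026)), whereas Dnaic2, at 45.3, 30.7 and 48.7 in WT and 115, 69.5 and 33.8 in KO-labelled libraries, was not (0.66 (limma adjusted p = 0.28)). Of the tektins Tekt1 was called (0.88 (limma adjusted p = 0.0207)), with 1065, 1623 and 1838 against 3722, 2611 and 2059. Tekt3 had the highest estimate (0.99 (limma adjusted p = 0.0504)), but its groups overlapped at 252, 340.0 and 496 against 1043, 768 and 417. Tekt4 was the tektin without a higher estimate, at 142, 205 and 255 against 302, 165 and 96.4, a log2 difference of -0.21 (SE 0.441, limma adjusted p = 0.711). Its KO-labelled libraries lay on both sides of the WT ones, so a difference was not detectable here. Of the spoke genes 4 of 6 were called, including Rsph1 (0.95 (limma adjusted p = 0.0163)) and Rsph3a (1.09 (limma adjusted p = 0.0169)); reads of Rsph3a and its near-identical copy Rsph3b may have been split between them. Rsph6a was not called, at 555, 405 and 233 in KO-labelled libraries (0.99 (limma adjusted p = 0.0524)), nor was Rsph4a (0.42). Spag1, an assembly factor of dynein arms, and Spag7 were called (1.07 and 0.82).

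Spag4 went the other way. It was at 132, 132 and 134 in the 3 WT pachytene libraries, a narrow range, and at 35.1, 17.6 and 49.7 in the KO-labelled ones. The log2 difference was -2.04 (SE 0.441, limma adjusted p = 0.00927), 3.88 times lower by means, and after median-ratio scaling it was -2.33. Spag4 was called lower under all 21 alternatives (every scaling, pseudocount, filter and fit tried, and without any 1 library), with estimates from -2.57 to -1.64 and adjusted p from 0.00091 to 0.0409. At LZ it was at 40.8, 9.13 and 27.0 in KO-labelled libraries, also below all WT values. The round spermatid markers moved the same way at pachytene, with all 18 lower in every KO-labelled than in every WT library. Prm1, a protamine of spermatids, was at 19858, 21909 and 17457 in WT and 3864, 764 and 4391 in KO-labelled pachytene libraries, and in both Spag4 and Prm1 replicate 2 was the lowest of the KO-labelled ones. The part of these cells in the Spag4 result was not tested.

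**Figure D3:**
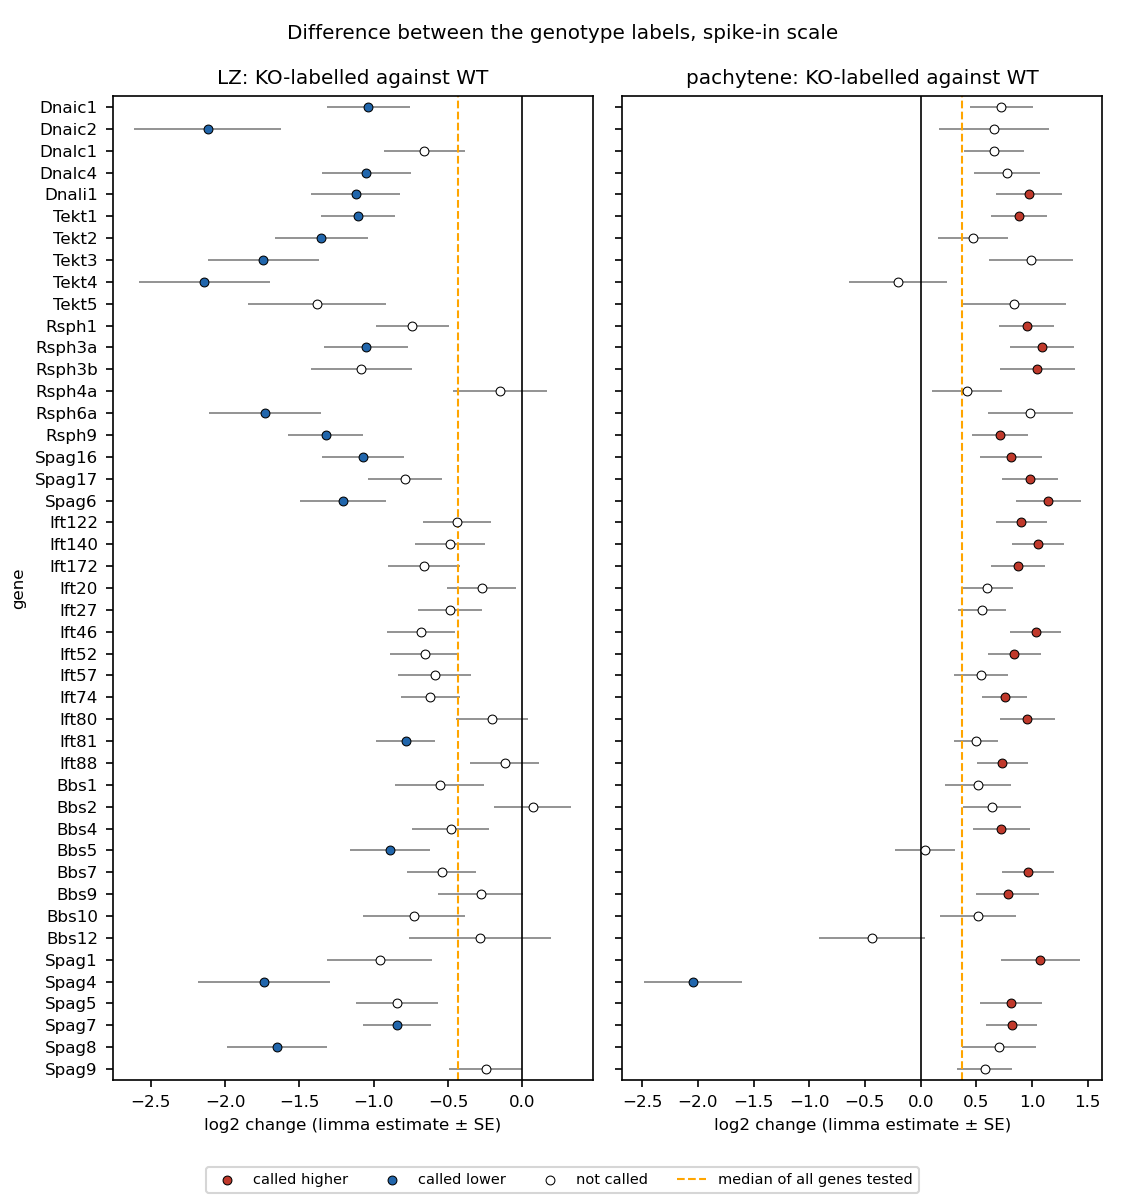
Log2 difference of KO-labelled from WT libraries (x axis; point, limma estimate; bar, standard error) for the 45 genes, at LZ (left) and pachytene (right), on the spike-in scale. Red points were called higher, blue points lower and open points were not called; the dashed line is the median of all genes tested (-0.43 and 0.37), and Spag4 is the blue point at pachytene.

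**Figure D4:**
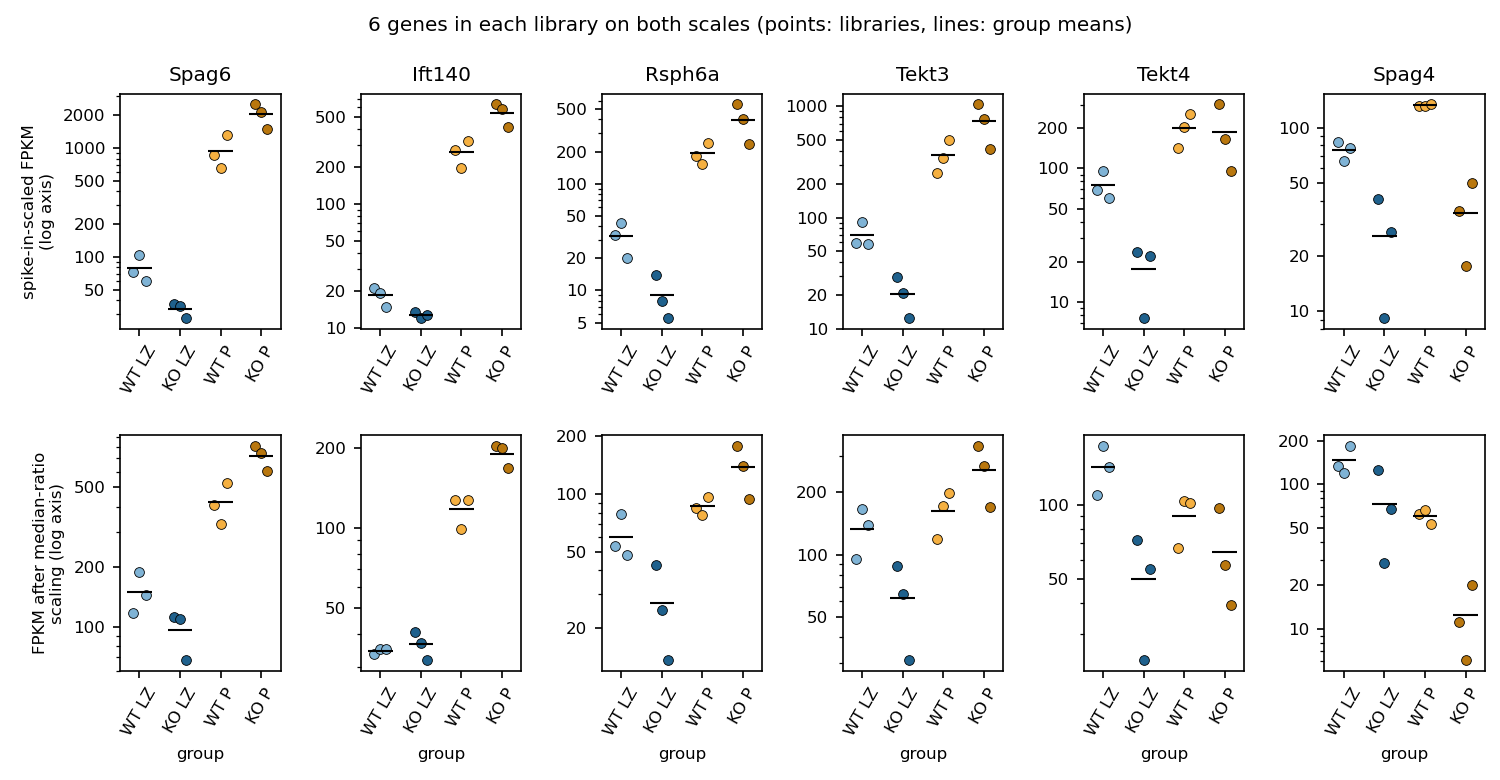
Levels of 6 genes in each library (y axis, log scale; points, libraries; lines, group means of 3), on the spike-in scale (top) and after median-ratio scaling (bottom). Spag4 is lower in KO-labelled than WT pachytene libraries on both scales, Ift140 is lower at LZ in the top row only, and the KO-labelled pachytene points of Tekt4 lie on both sides of the WT ones on the spike-in scale.

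The difference between the genotype effects of the 2 stages was tested as an interaction, and positive values mean a higher KO-labelled to WT ratio at pachytene than at LZ. On the spike-in scale 34 of 45 were called positive and 0 negative (0 negative also at an unadjusted p under 0.05), against 34.9% and 3.49% of all genes. The members' median was 1.54 beside 0.72 for all genes. After median-ratio scaling 3 remained positive, Rsph6a, Spag6 and Spag17, and 0 were negative, against 2.29% and 4.39% of all genes; 23 were positive at an unadjusted p under 0.05. Per-million scaling and quantile normalisation called 0 in either direction (10 and 16 positive and 0 negative at an unadjusted p under 0.05). The smallest p on the spike-in scale were those of Spag6 (2.35 (SE 0.409, limma adjusted p = 0.00493)), Rsph9 (2.04 (limma adjusted p = 0.00493)), Tekt1 (1.99 (limma adjusted p = 0.00493)), Ift46 (1.71 (limma adjusted p = 0.00509)) and Rsph3a (2.14 (limma adjusted p = 0.00509)). Dnaic2, Tekt3 and Rsph6a had the largest estimates, 2.78, 2.73 and 2.72, and after median-ratio scaling 2.2, 1.82 and 1.85. The 11 not called were Spag4 (-0.30 (limma adjusted p = 0.72)), Bbs12 (-0.15), Bbs1 (1.07), Bbs2 (0.57), Bbs5 (0.93), Bbs9 (1.06), Bbs10 (1.24), Spag9 (0.82), Ift20 (0.87), Ift88 (0.85) and Rsph4a (0.56).

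The dynein heavy chains, the motor subunits absent from the 47 by their symbols and described here from a list of their own, were also higher at pachytene. Of the 11 Dnahc rows 9 passed the filter. All 9 were called higher at pachytene in WT and in KO-labelled cells, against 80.9% and 76.8% of all genes, with medians of 3.63 and 5.0. After median-ratio scaling 7 and 8 were called higher, against 20.2% and 31.1% of all genes. Dnahc8, an outer arm heavy chain of sperm, was at 15.3, 18.6 and 10.8 in WT LZ and 284, 187 and 333 in WT pachytene (4.07 (limma adjusted p = 6.19e-08)). Its counterpart in airway cilia, Dnahc5, was at most 0.439 in every library, as Rsph4a was low among the spoke genes. Dnahc7b changed by 4.09 in WT cells, where reads of Dnahc7a and Dnahc7b may have been split. Against WT, 0 of 9 were called at LZ, where 12.9% of all genes were called lower. The median there was -0.35, with 2 lower and 0 higher at an unadjusted p under 0.05. At pachytene 8 were called higher (median 0.93), led by Dnahc6 (1.17 (limma adjusted p = 0.0158)) and Dnahc10 (1.1), against 24.6% of all genes called higher. After median-ratio scaling 0 were called at pachytene (7 higher at an unadjusted p under 0.05), against 3.28% of all genes called higher.

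Other parts of the machinery were taken from lists of related genes outside the 47, whose counts stand beside 80.9% of all genes called higher from LZ to pachytene in WT cells, 12.9% called lower at LZ and 24.6% higher and 14.3% lower at pachytene in KO-labelled libraries. Of 19 further IFT, kinesin-2 and IFT dynein genes all 19 were called higher from LZ to pachytene in WT cells, 2 were called lower in KO-labelled LZ and 12 higher in KO-labelled pachytene libraries. Kif3b, a subunit of the kinesin-2 motor of the trains, was 1 of the 2 at LZ (-0.96 (limma adjusted p = 0.0334)) and was higher at pachytene (0.88 (limma adjusted p = 0.0238)). Of 8 further BBS and transport genes 8, 2 and 4 were called in the same order. Of 12 dynein assembly factors, which preassemble the arms in the cytoplasm, 12, 5 and 10 were called; Lrrc50 differed by -1.28 (limma adjusted p = 0.0202) at LZ and 1.03 (limma adjusted p = 0.0189) at pachytene. In WT cells the largest changes from LZ to pachytene were those of Ttc30a1 (4.42) and Ttc21b (3.63) on the first list, Ttc8 (3.43) and Wdpcp (3.08) on the second and Dyx1c1 (4.48) and Pih1d2 (3.58) on the third; reads of Ttc30a1 and its near-identical copy Ttc30a2 may have been split. After median-ratio scaling none of these 3 lists had a gene called at LZ, and 0, 1 (Wdpcp, named after its values were seen) and 0 were called higher at pachytene.

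The list of docking, nexin-dynein regulatory, ruler and central apparatus genes had calls in both directions at pachytene. Of its 35 genes 33 were called higher at pachytene in WT cells, 19 lower in KO-labelled LZ, and 20 higher and 5 lower in KO-labelled pachytene libraries, the last a share like that of all genes (14.3%). After median-ratio scaling 0 were called at LZ, and 3 higher and 5 lower at pachytene. The 5 lower ones, beside Spag4 among the 47, were Dydc2 (-3.04 (limma adjusted p = 0.00105)), Tctex1d1 (-2.69 (limma adjusted p = 0.00608)), and, named after their values were seen, Efhc2 (-2.19), Iqca (-2.01) and Ropn1 (-2.0). Dydc2 was at 73.8, 42.2 and 53.3 in WT and 8.83, 2.87 and 7.22 in KO-labelled pachytene, and its neighbour in name Dydc1 at 180.3, 299.9 and 277 and 554, 260.4 and 145. At LZ both were called lower (-2.17 and -2.26). The round spermatid markers moved with these genes as with Spag4, and their part was not tested.

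Among 10 transcription factors of ciliated and late meiotic cells, 4 were called higher and 3 lower in KO-labelled pachytene libraries, against 24.6% and 14.3% of all genes. At LZ 0 were called (3 lower and 0 higher at an unadjusted p under 0.05), against 12.9% of all genes called lower. Rfx2, a regulator of ciliary genes in spermatocytes, was at 44.8, 34.8 and 33.1 in WT LZ, 26.8, 25.0 and 32.8 in KO-labelled LZ, 345, 248 and 405 in WT pachytene and 872, 848 and 586 in KO-labelled pachytene libraries. It was called higher in KO-labelled pachytene (1.21 (limma adjusted p = 0.00618)) and its interaction was 1.61 (limma adjusted p = 0.00607). Rfx1 was called lower there (-1.55 (limma adjusted p = 0.0115)), as were Taf7l, a germ cell TFIID subunit (-2.57 (limma adjusted p = 0.00704)), and, named after its values were seen, Foxj1, the regulator of motile cilia (-0.92). Foxj1 was low throughout, at 2.44, 3.02 and 1.92 in WT and 1.44, 0.234 and 0.984 in KO-labelled pachytene libraries. In WT cells Rfx4 and Crem had the largest changes from LZ to pachytene (3.86 and 3.1). Mybl1, which encodes A-MYB, was not called between the labels at either stage (-0.083 (limma adjusted p = 0.875) at LZ, where the estimate was 0.42 after median-ratio scaling, and 0.74 (limma adjusted p = 0.0645) at pachytene).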

How the data were processed

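Polyadenylated RNA of sorted spermatocytes was amplified as cDNA and sequenced as 150 bp paired ends, per the labels' protocols. The authors deposited 1 table of gene-level FPKM scaled by ERCC spike-ins, per the file name; TopHat2 2.1.1, Cufflinks 2.2.1 and build mm9 are named in the submitters' processing notes, and the annotation, filters and scaling formula are not given in the sources used here. Spike-in scaling keeps differences in RNA content between libraries, so each comparison is also given after median-ratio scaling. There were 4 unnamed columns, which were not used. FPKM holds no counts, so no interval for depth is given.

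Genes with at least 1 FPKM in at least 3 of 12 libraries (15400) were fitted as log2(FPKM + 1) in limma 3.58.1 (R 4.3.3), with 1 mean per group, a mean-variance trend and two-sided Benjamini-Hochberg adjusted p over all genes; under 0.05 was called. A log2 change on this scale understates that of low genes. The fit was tested on simulated data. The alternatives were median-ratio, per-million and quantile scaling, pseudocounts of 0.1 and 5, no filter and a filter of 5, the compared groups alone, a replicate block and leaving out each library.

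Per list and comparison, the genes with the highest and lowest change and the highest mean were named, with the 5 smallest p of the interaction and up to 2 called genes of each related list; Dnahc5, Mybl1, Foxj1 and Prm1 were added for their known roles, and a few other genes after their values were seen. The members and lists were chosen with earlier results of these data known. Promoter sequences are RefSeq's of GRCm38.p6, a later build than mm9, matched by symbol (46 of 47 genes matched, 38 with a promoter).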

Additional observations from a re-analysis of the deposited data

Results flagged for a closer look

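The genotype effect differed between LZ and pachytene for 34 of the 45 genes tested, by the interaction term of limma on the spike-in scale (adjusted p under 0.05; positive values mean a higher KO-labelled to WT ratio at pachytene). Among the BBSome genes the difference passed for Bbs4 (1.21) and Bbs7 (1.51). Among the dynein chains the difference passed for Dnaic1 (1.76), Dnaic2 (2.78), Dnalc1 (1.32), Dnalc4 (1.83) and Dnali1 (2.1). Among the IFT-A genes the difference passed for Ift122 (1.34) and Ift140 (1.54). Among the IFT-B genes the difference passed for Ift172 (1.53), Ift27 (1.04), Ift46 (1.71), Ift52 (1.5), Ift57 (1.13), Ift74 (1.37), Ift80 (1.16) and Ift81 (1.28). Among the radial spoke genes the difference passed for Rsph1 (1.69), Rsph3a (2.14), Rsph3b (2.13), Rsph6a (2.72) and Rsph9 (2.04). Among the other Spag genes the difference passed for Spag1 (2.03), Spag5 (1.65), Spag7 (1.66) and Spag8 (2.36). Among the central apparatus genes the difference passed for Spag16 (1.88), Spag17 (1.77) and Spag6 (2.35). Among the tektins the difference passed for Tekt1 (1.99), Tekt2 (1.83), Tekt3 (2.73), Tekt4 (1.93) and Tekt5 (2.23). Of all genes tested, 34.9% were called in this direction on the same scale. After median-ratio scaling Rsph6a, Spag6 and Spag17 remained called, and after per-million scaling or quantile normalisation 0 did. Among the named genes outside the 47 the difference passed upward for Ccdc103 (1.93), Ccdc39 (1.1), Crem (1.46), Dnahc10 (1.71), Dnahc17 (1.74), Dnahc2 (1.61), Dnahc6 (1.53), Dnahc7b (0.98), Dnahc8 (1.66), Dydc1 (2.42), Dync2h1 (1.16), Dyx1c1 (1.43), Efcab6 (2.52), Kif3b (1.83), Lrrc50 (2.31), Lrrc6 (1.91), Lztfl1 (1.57), Pih1d2 (1.49), Rfx2 (1.61), Tcte1 (3.26), Tctex1d2 (1.72), Ttc21b (0.86), Ttc30a2 (2.09), Ttc8 (1.09), Wdpcp (2.19), Wdr63 (2.1) and Zmynd10 (1.97) and downward for Efhc2 (-2.24) and Taf7l (-2.06), against 3.49% of all genes called downward; after median-ratio scaling Dnahc10, Efhc2, Kif3b, Lrrc50, Taf7l and Wdpcp passed.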

How the results depend on the processing

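Counts of genes called depended on the scaling. In WT cells 43 were called higher at pachytene, and 29, 28 and 21 with median-ratio scaling, quantile normalisation and per-million scaling, and those called lower were 0, 0, 1 and 1. In KO-labelled cells those called lower were 0, 1, 1 and 3. At LZ 18 were called lower, and 0 under each of the 3 scalings, without the filter and in the fit of the 2 groups alone. At pachytene 23 were called higher, 5 after median-ratio scaling and 0 after the other two, and for the interaction 34, 3 and 0. In fits that left out 1 library each, the counts were 42 to 44 higher in WT cells, 43 to 44 higher in KO-labelled cells, 0 to 26 lower at LZ, 2 to 31 higher and 1 lower at pachytene, and 28 to 37 for the interaction. The pooled spread assumes that a group left with 2 libraries varies like the others.

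With a replicate block the counts were 44 higher (WT stages), 43 higher (KO-labelled stages), 18 lower (LZ), 23 higher and 1 lower (pachytene) and 36 for the interaction. Over 18 pairs of same-numbered libraries the correlations of deviations from group means ran from -0.17 to 0.26, and 7 were over 0.1. Pairs with different numbers were not compared, so these values cannot tell whether the replicate numbers pair the libraries.

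Among named genes, some estimates changed sign. For WT pachytene against LZ, the sign of the estimate turned after median-ratio scaling for Bbs12 (-0.43), Bbs5 (-0.017), Dnaic2 (-0.19), Spag4 (-1.23) and Tekt4 (-0.65); after quantile normalisation for Bbs12 (-0.27), Bbs5 (-0.11), Dnaic2 (-0.084), Rsph4a (-0.087), Spag4 (-1.37) and Tekt4 (-0.80); after per-million scaling for Bbs12 (-0.70), Bbs5 (-0.29), Dnaic2 (-0.46), Ift52 (-0.16), Spag4 (-1.51), Spag7 (-0.067) and Tekt4 (-0.93). For KO-labelled pachytene against LZ, the sign of the estimate turned after median-ratio scaling for Bbs12 (-1.06) and Spag4 (-2.37); after quantile normalisation for Bbs12 (-0.51), Bbs5 (-0.25) and Spag4 (-2.26); after per-million scaling for Bbs12 (-1.62), Bbs5 (-0.58), Spag4 (-2.97) and Tekt4 (-0.17). For KO-labelled against WT at LZ, the sign of the estimate turned after median-ratio scaling for Bbs12 (0.065), Bbs7 (0.0024), Ift122 (0.12), Ift140 (0.069), Ift20 (0.32), Ift88 (0.46), Mybl1 (0.42), Rnaseh1 (0.29) and Spag9 (0.30); after quantile normalisation for Bbs12 (0.14), Bbs7 (0.055), Ift122 (0.21), Ift140 (0.15), Ift20 (0.46), Ift88 (0.60), Mybl1 (0.45), Rnaseh1 (0.37), Rsph4a (0.058) and Spag9 (0.35); after per-million scaling for Bbs12 (0.13), Bbs7 (0.092), Ift122 (0.21), Ift140 (0.16), Ift20 (0.41), Ift88 (0.55), Mybl1 (0.54), Rnaseh1 (0.38) and Spag9 (0.39). For KO-labelled against WT at pachytene, the sign of the estimate turned after median-ratio scaling for Bbs5 (-0.31); after quantile normalisation for Bbs5 (-0.37) and Ift81 (-0.0067); after per-million scaling for Bbs10 (-0.050), Bbs5 (-0.53), Ift81 (-0.074) and Rnaseh1 (-0.0068). For the interaction, the sign of the estimate turned after median-ratio scaling for Bbs2 (-0.35), Ift20 (-0.079), Ift88 (-0.084), Spag9 (-0.078) and Ttc21b (-0.070); after quantile normalisation for Bbs2 (-0.48), Bbs5 (-0.13), Ccdc39 (-0.24), Ift20 (-0.45), Ift27 (-0.29), Ift80 (-0.088), Ift88 (-0.40), Spag9 (-0.079) and Ttc21b (-0.38); after per-million scaling for Bbs2 (-0.67), Bbs5 (-0.29), Bbs9 (-0.16), Ccdc39 (-0.15), Dnahc7b (-0.18), Dync2h1 (-0.046), Ift20 (-0.39), Ift27 (-0.21), Ift57 (-0.068), Ift80 (-0.078), Ift88 (-0.39), Spag9 (-0.38), Ttc21b (-0.38) and Ttc8 (-0.12). Leaving out 1 library each, the estimate for KO-labelled pachytene against LZ ran from -0.079 to 0.94 for Spag4 (sign turned without KO-labelled LZ replicate 2). Leaving out 1 library each, the estimate for KO-labelled against WT at LZ ran from -0.68 to 0.21 for Bbs12 (sign turned without WT LZ replicate 1 or KO-labelled LZ replicate 2), from -0.086 to 0.22 for Bbs2 (sign turned without WT LZ replicate 1 or KO-labelled LZ replicate 2), from -0.30 to 0.070 for Ift88 (sign turned without KO-labelled LZ replicate 1), from -0.33 to 0.21 for Mybl1 (sign turned without WT LZ replicate 2 or KO-labelled LZ replicate 1 or KO-labelled LZ replicate 2) and from -0.23 to 0.018 for Rsph4a (sign turned without WT LZ replicate 2). Leaving out 1 library each, the estimate for KO-labelled against WT at pachytene ran from -0.10 to 0.19 for Bbs5 (sign turned without WT pachytene replicate 2 or KO-labelled pachytene replicate 3) and from -0.62 to 0.20 for Tekt4 (sign turned without KO-labelled pachytene replicate 3). Leaving out 1 library each, the estimate for the interaction ran from -0.65 to 0.24 for Bbs12 (sign turned without WT LZ replicate 3 or KO-labelled LZ replicate 1 or KO-labelled LZ replicate 3 or KO-labelled pachytene replicate 2) and from -0.89 to 0.13 for Spag4 (sign turned without KO-labelled LZ replicate 1 or KO-labelled pachytene replicate 2). The other estimates given for named genes kept their sign under these alternatives, and the cause of the changes was not tested.

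The depth of the libraries is unknown, 3 libraries per group limit the tests, and the libraries' spike-in factors, on which every level rests, cannot be checked from the table.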
